A study of Mus musculus with 6 samples.

Results

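The genes described here are 7 genes known from interneurons born in the caudal ganglionic eminence of the embryonic forebrain: the transcription factors *Nr2f1*, *Nr2f2*, *Sp8*, *Npas3* and *Prox1*, the serotonin receptor subunit *Htr3a* and the RNA-binding protein *Adarb2*. They were taken by symbol, and all 7 were found among the 20367 genes measured. Expression was measured by RNA sequencing in sorted cells of embryonic C57BL/6J mouse cortex at embryonic day (E) 13.5, 15.5 and 16.5. The embryos used were those positive for both reporters from a cross of heterozygous Tbr2(Eomes)-GFP mice with homozygous DCX-mRFP mice, so the cells of both populations carried both transgenes. Neurons derived from intermediate progenitors (IPN) were gated as positive for GFP and mRFP together, and the other neurons (non-IPN) as positive for mRFP alone. Each population gave 1 library a day, from 1000000 cells at E15.5 without amplification and from 10000 cells at E13.5 and E16.5 with the RNA amplified by the Ovation RNA-Seq V2 kit. The labels tie no library to a counted number of embryos, and a gate on a reporter protein can keep cells after the gene itself has been switched off. The difference between E15.5 and the other days cannot be told apart from that in preparation.

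The caudal ganglionic eminence is a ventral germinal zone whose postmitotic cells migrate tangentially into the cortex, where they form interneurons that release GABA, many of them of superficial layers. Its precursors and migrating cells are known for the nuclear receptors Nr2f1 and Nr2f2 (COUP-TFI and COUP-TFII), for the zinc finger factor Sp8 and for the homeodomain factor Prox1. Their adult progeny are the cortical interneurons that carry the ionotropic serotonin receptor. Several of these factors act elsewhere too: Nr2f1 in the patterning of cortical areas in the progenitors and neurons of the pallium, and Prox1 in granule neurons of the dentate gyrus.

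Each level is in CPM, a gene's value divided by its column's sum and multiplied by 1000000, and is not corrected for gene length, so it is compared between libraries and not between genes. Column totals ran from 12583677 to 32538995, but the deposited values had been scaled by the authors, so the true depth is unknown. A deposited value of 1 was worth 0.03 to 0.08 CPM, and members with deposited values under 10 are pointed out below. The reporter gene *Eomes* was at 437 CPM in IPN and 214 CPM in non-IPN at E13.5, at 102 CPM in IPN and 72.5 CPM in non-IPN at E15.5, and at 98.4 CPM in IPN and 72.0 CPM in non-IPN at E16.5. *Dcx* was at 855 CPM or more in every library. The non-IPN library of E13.5 stood apart, with 4.92% of its total in hemoglobin genes against at most 0.03% in any other. In these sorted bulk samples fewer cells of a type and less RNA per cell cannot be told apart.

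**Figure D1:**
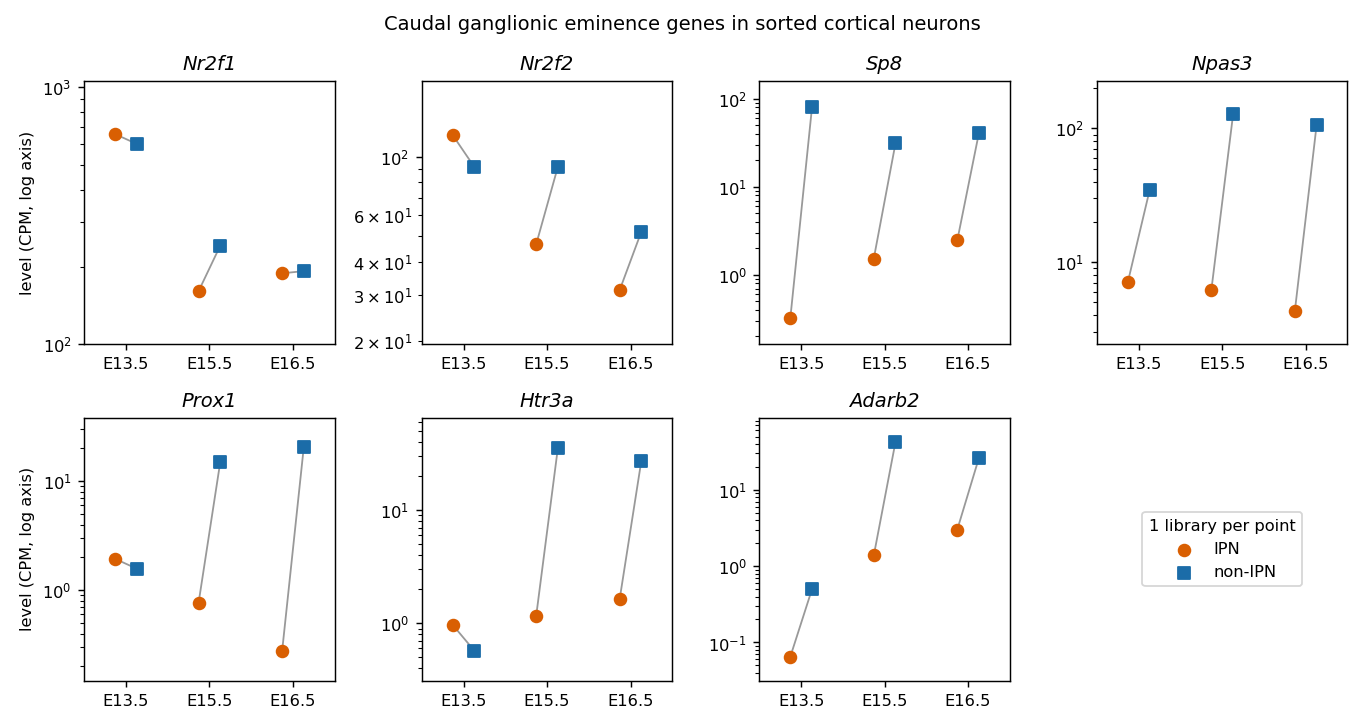
Level of each of the 7 genes in CPM on a log axis, against embryonic day, with 1 point a library, IPN as circles left of non-IPN as squares, and a line joining the pair sorted on the same day. *Sp8*, *Npas3* and *Adarb2* were lower in IPN on every day, and *Prox1* and *Htr3a* on E15.5 and E16.5. *Nr2f1* and *Nr2f2* stood at 31.2 CPM or more in every library.

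The nuclear receptors were present in both populations at every day. *Nr2f1* was at 657 CPM in IPN and 602 CPM in non-IPN at E13.5, at 161 CPM in IPN and 242 CPM in non-IPN at E15.5, and at 189 CPM in IPN and 193 CPM in non-IPN at E16.5. The 2 populations overlapped, and both were highest at E13.5. The fitted log2 difference between IPN and non-IPN was -0.03 ± 0.22 (SE, 3 pairs), with a 95% confidence interval from -0.52 to 0.47 (limma, adjusted p = 0.979). *Nr2f2* was at 121 CPM in IPN and 91.4 CPM in non-IPN at E13.5, at 46.6 CPM in IPN and 91.7 CPM in non-IPN at E15.5, and at 31.2 CPM in IPN and 52.0 CPM in non-IPN at E16.5. The populations overlapped here too: IPN was above non-IPN at E13.5 and below it at E15.5 and E16.5. Its fitted log2 difference was -0.30 ± 0.30, with an interval from -0.96 to 0.37 (limma, adjusted p = 0.75). For neither receptor did a difference between the populations pass the test. The sum of the 12 genes listed for radial glia and progenitors was also highest at E13.5 in both populations, at 1621 CPM in IPN and 5852 CPM in non-IPN, against 699 CPM in IPN and 1334 CPM in non-IPN at E16.5; its part in these levels was not tested.

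*Sp8*, a zinc finger factor of the Sp family required for interneurons of the dorsal lateral and caudal eminences, was lower in IPN on each day. It was at 0.32 CPM in IPN and 80.7 CPM in non-IPN at E13.5, at 1.54 CPM in IPN and 31.2 CPM in non-IPN at E15.5, and at 2.46 CPM in IPN and 41.2 CPM in non-IPN at E16.5. The 3 IPN libraries lay below the 3 non-IPN libraries without overlap. The non-IPN level was highest at E13.5, while the IPN level was lowest there, where its deposited value was 5. The fitted log2 difference was -5.21 ± 0.71 (SE, 3 pairs; limma, adjusted p = 0.00284).

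*Npas3*, a transcription factor of the bHLH-PAS family that pairs with Arnt proteins, showed the same order. It was at 7.11 CPM in IPN and 34.5 CPM in non-IPN at E13.5, at 6.21 CPM in IPN and 127 CPM in non-IPN at E15.5, and at 4.31 CPM in IPN and 105 CPM in non-IPN at E16.5. Again the IPN libraries lay below the non-IPN libraries without overlap, and the non-IPN level was lowest at E13.5. The fitted log2 difference was -3.60 ± 0.46 (SE, 3 pairs; limma, adjusted p = 0.00199). *Sp8* and *Npas3* were the only members whose populations did not overlap, and 6.55% of the 19561 genes tested lay below non-IPN in every IPN library in this way. The calls on *Sp8* and *Npas3* both ended without the E15.5 pair, with limma adjusted p of 0.086 and 0.127.

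*Prox1*, a homeodomain factor kept by caudal interneurons after they leave the cell cycle, was at 1.94 CPM in IPN and 1.57 CPM in non-IPN at E13.5. It was at 0.77 CPM in IPN and 15.1 CPM in non-IPN at E15.5, and at 0.27 CPM in IPN and 20.5 CPM in non-IPN at E16.5. The populations overlapped through E13.5, when both were low, and only the later non-IPN libraries were above 10 CPM. Non-IPN was 19.6-fold above IPN at E15.5 and 74.9-fold above it at E16.5, the second against a deposited value of 4. Over the 3 pairs the fitted log2 difference of -3.15 ± 1.06 had a 95% confidence interval from -5.49 to -0.81 and was not called (limma, adjusted p = 0.185).

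*Htr3a*, the subunit needed for a working serotonin 5-HT3 receptor, had a similar course. It was at 0.97 CPM in IPN and 0.57 CPM in non-IPN at E13.5, at 1.17 CPM in IPN and 35.6 CPM in non-IPN at E15.5, and at 1.64 CPM in IPN and 27.5 CPM in non-IPN at E16.5. All IPN libraries and the E13.5 non-IPN library were low, this non-IPN library with a deposited value of 8, and the 2 later non-IPN libraries were high. Non-IPN was 30.5-fold above IPN at E15.5 and 16.8-fold above it at E16.5. Its fitted log2 difference of -2.60 ± 0.99 had an interval from -4.81 to -0.40 and was not called (limma, adjusted p = 0.267). Without the E13.5 pair the differences of *Prox1* (-4.94) and *Htr3a* (-4.32) did pass it, with limma adjusted p of 0.0196 and 0.0125. Without the E15.5 pair they were smaller, -2.63 for *Prox1* and -1.48 for *Htr3a* (limma, adjusted p = 0.705 and 0.812), as they were without the E16.5 pair, -1.88 for *Prox1* and -2.01 for *Htr3a* (limma, adjusted p = 0.614 and 0.637).

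*Adarb2* encodes a brain protein of the family of adenosine deaminases acting on RNA and has no known editing activity. It was at 0.07 CPM in IPN and 0.50 CPM in non-IPN at E13.5, deposited values of 1 and 7. It was at 1.38 CPM in IPN and 42.5 CPM in non-IPN at E15.5, and at 3.01 CPM in IPN and 26.3 CPM in non-IPN at E16.5. IPN was below non-IPN on each day, yet the populations overlapped because the E13.5 non-IPN library was lower than the later IPN libraries. The fitted log2 difference was -3.25 ± 0.76 (SE, 3 pairs; limma, adjusted p = 0.0472). This call was close to the threshold of 0.05: the adjusted p was 0.158 without the E16.5 pair and 0.557 without the E15.5 pair, and 0.0573 with column totals in place of the deposited scaling.

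The sequences around the start of *Sp8*, *Npas3* and *Adarb2*, called between the populations, and of *Prox1*, called for its slope over days, are shown. They come from the RefSeq promoter table on build GRCm38.p6, a different build from that of the processing notes. Each runs from 250 bases before to 50 after the annotated start; for *Prox1* and *Sp8*, which have 2 and 3 starts in the table, the most upstream is given. The table held 6 of the 7 members, with 10 starts in all, and *Htr3a* was not matched. Capitals mark matches, on either strand, to TAATTA (the core bound by many homeodomain factors), GGGCGG or CCGCCC (the GC box bound by Sp factors), AGGTCA or TGACCT (a site of nuclear receptors) and CCAAT or ATTGG (the CCAAT box).
Prox1, chr1:190170778-190171077, minus strand: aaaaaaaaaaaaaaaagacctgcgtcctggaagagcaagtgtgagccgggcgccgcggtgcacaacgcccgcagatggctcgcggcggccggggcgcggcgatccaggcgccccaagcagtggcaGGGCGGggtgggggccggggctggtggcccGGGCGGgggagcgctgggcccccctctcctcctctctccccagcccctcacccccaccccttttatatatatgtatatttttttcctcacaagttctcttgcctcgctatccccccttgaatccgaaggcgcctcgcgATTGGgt
Sp8, chr12:118846079-118846378, plus strand: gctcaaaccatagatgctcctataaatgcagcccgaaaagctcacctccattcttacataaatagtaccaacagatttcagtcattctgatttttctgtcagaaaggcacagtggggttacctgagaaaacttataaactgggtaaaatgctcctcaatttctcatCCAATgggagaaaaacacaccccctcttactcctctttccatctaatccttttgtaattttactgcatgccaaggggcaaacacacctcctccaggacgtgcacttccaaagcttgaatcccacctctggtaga
Adarb2, chr13:8202616-8202915, plus strand: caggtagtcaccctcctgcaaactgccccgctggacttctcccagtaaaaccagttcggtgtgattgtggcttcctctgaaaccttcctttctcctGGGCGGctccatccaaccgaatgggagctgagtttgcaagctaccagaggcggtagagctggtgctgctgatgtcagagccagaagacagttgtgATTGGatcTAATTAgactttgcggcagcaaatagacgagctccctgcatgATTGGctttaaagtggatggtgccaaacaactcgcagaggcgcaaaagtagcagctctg
Npas3, chr12:53248182-53248481, plus strand: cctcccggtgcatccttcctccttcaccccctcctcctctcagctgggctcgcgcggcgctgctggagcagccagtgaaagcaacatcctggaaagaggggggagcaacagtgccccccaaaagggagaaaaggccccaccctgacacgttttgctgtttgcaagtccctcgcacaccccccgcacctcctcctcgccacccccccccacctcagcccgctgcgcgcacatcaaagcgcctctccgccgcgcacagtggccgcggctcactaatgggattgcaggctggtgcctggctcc

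Of the windows shown, that of *Prox1* held 2 GC boxes and 1 CCAAT box, and that of *Sp8* 1 CCAAT box. That of *Adarb2* held 1 homeodomain core, 1 GC box and 2 CCAAT boxes, and that of *Npas3* none of the 4 motifs. Of the *Sp8* windows not shown, 1 held 1 GC box, 1 nuclear receptor site and 1 CCAAT box, and the other 1 homeodomain core. The *Prox1* window not shown held 1 GC box and no CCAAT box. Of all 32851 promoters of this length in the table, 5.29% held the homeodomain core, 35.7% the GC box, 16.3% the nuclear receptor site and 37.4% the CCAAT box. No motif was in all 4 sequences shown. A match is a run of letters and was not tested as a site.

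**Figure D2:**
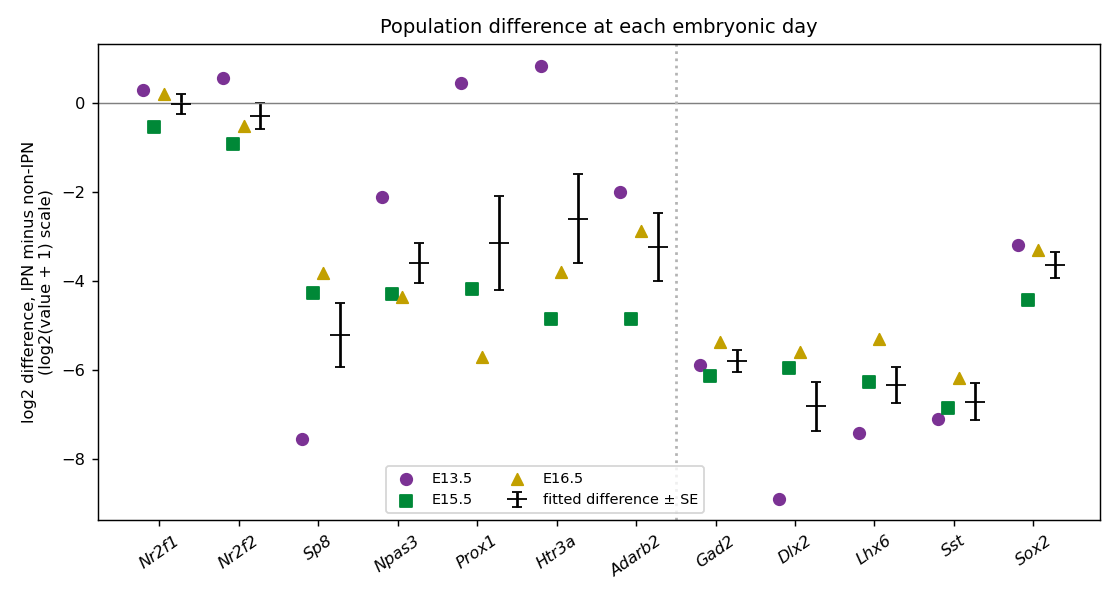
Log2 difference, IPN minus non-IPN, of log2(value + 1) for the 7 genes (left of the dotted line) and for *Gad2*, *Dlx2*, *Lhx6*, *Sst* and *Sox2* (right of it), with 1 symbol a day and the fitted difference with its SE as the black bar. For *Prox1* the E13.5 difference was 0.43, that of E15.5 was -4.19 and that of E16.5 was -5.70, while *Gad2* stayed between -6.13 and -5.36.

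In all, 3 of the 7 members (*Sp8*, *Npas3* and *Adarb2*) were lower in IPN and none of the others was called higher, where 2.41% of all 19561 genes tested were lower and 3.39% were called in either direction. The median of the fitted differences was -3.15 over the members and -0.02 over all genes. Taken day by day, the median log2 difference of the members was 0.27 on E13.5, then -4.27 on E15.5 and -3.80 on E16.5, against 0 for all genes each time. On E13.5 the difference of 3 members was below 0, on E15.5 that of all 7, and on E16.5 that of 6. The exception on E16.5 was *Nr2f1*, at 0.19 on the deposited scaling, while in CPM it was at 189 in IPN and 193 in non-IPN. Of all 19561 genes, 9487 were below 0 on E13.5, 8909 on E15.5 and 8296 on E16.5. Each day is 1 pair of libraries, so the days serve as the replicates, and 3 pairs allow an exact paired permutation test of a single gene no p below 0.25. Without the E13.5 pair 5 members passed the limma test, with 578 genes called in all, and without the E16.5 pair 2 did, with 595. Without the E15.5 pair no member passed (3 at an unadjusted p under 0.05), and only 54 genes were called in all. In a limma fit that ignores the pairing by day no member and no other gene passed (2 members at an unadjusted p under 0.05).

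Whether the difference between populations changed with the day was tested as a slope of the log2 difference, IPN minus non-IPN, per day. *Prox1* had the steepest slope of the members, -2.08 ± 0.47 a day (limma, adjusted p = 0.0435), and was the 1 member called, where 1.3% of all genes were called in either direction and 0.68% with a negative slope. The slope was -1.73 ± 0.50 for *Htr3a* (adjusted p = 0.103) and -0.80 ± 0.22 for *Npas3* (adjusted p = 0.0892) in the same limma fit. *Sp8* had a slope of the other sign, 1.30 ± 0.34 (limma, adjusted p = 0.0693), since its gap was widest at E13.5, at a log2 difference of -7.56. *Adarb2* (-0.46), *Nr2f2* (-0.41) and *Nr2f1* (-0.08) had adjusted p of 0.255 or more. Marker lists moved with the day as well: 7 of 10 red blood cell genes and 3 of 12 radial glia and progenitor genes had a positive slope that passed, and their part in the members' slopes was not tested. The fit had 1 residual degree of freedom and set the unamplified pair between the amplified ones. With column totals as the scaling, *Sp8* (limma, adjusted p = 0.0134), *Htr3a* (0.00779) and *Npas3* (0.0138) passed beside *Prox1* (0.00215). That setting called 1421 genes in all, against 255 with the deposited scaling. The call on *Prox1* ended when genes under a mean of 1 CPM were left out (limma, adjusted p = 0.0581).

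The 2 days prepared alike, E16.5 and E13.5, were compared over both populations in the fit with population and day. *Adarb2* was higher at E16.5, by 4.93 ± 0.93 on the log2 scale (limma, adjusted p = 0.015), from E13.5 deposited values of 1 in IPN and 7 in non-IPN. *Nr2f1* (-1.84 ± 0.27, limma adjusted p = 0.0057) and *Nr2f2* (-1.50 ± 0.37, limma adjusted p = 0.0402) were lower. That is 1 member higher and 2 lower, where 3.76% of all genes were higher, 2.26% lower and 6.02% called either way. *Htr3a* had a difference of 2.96 ± 1.22 (limma, adjusted p = 0.191), which ran from 0.38 without non-IPN at E13.5 to 5.53 without IPN at E13.5, and that of *Nr2f2* ran from -2.13 to -0.86 without the same libraries. *Sp8* (0.75), *Prox1* (0.43) and *Npas3* (0.33) had limma adjusted p of 0.68 or more. These 3 values pool changes of opposite sign and stand for neither population. The log2 change was 2.62 in IPN and -1.12 in non-IPN for *Sp8*, and -2.63 in IPN and 3.49 in non-IPN for *Prox1*. For *Npas3* it was -0.79 in IPN and 1.455 in non-IPN. Radial glia and progenitor genes moved too, with 3 of 12 lower at E16.5 and none higher (median -1.17), as did Cajal-Retzius genes, with 3 of 10 lower and 1 higher (median -1.65); the part of either list was not tested. In limma no gene at all was called when any 1 of the 6 libraries was left out, with 1809 to 4025 genes at an unadjusted p under 0.05. Without the E15.5 pair the limma adjusted p was 0.0372 for *Nr2f1*, 0.0789 for *Adarb2* and 0.126 for *Nr2f2*.

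Within a population each day is 1 library, so its change has no test. In non-IPN, *Adarb2* was 52.6-fold, *Htr3a* 48.1-fold, *Prox1* 13.03-fold and *Npas3* 3.05-fold higher at E16.5 than at E13.5, the first 2 from deposited values of 7 and 8. In the same libraries *Gad2*, the glutamate decarboxylase of GABA neurons, was 2.28-fold higher and *Lhx6*, a factor of medial ganglionic eminence interneurons, 8.90-fold higher. *Nr2f1*, *Nr2f2* and *Sp8* were lower at E16.5, at 0.32, 0.57 and 0.51 of their E13.5 level. In non-IPN 4 members were thus higher at E16.5 and 3 lower, a split that was not compared with that of all genes. In IPN, *Nr2f1* was at 0.29 and *Nr2f2* at 0.26 of its E13.5 level. There *Npas3* was at 0.61 and *Prox1* at 0.14 of the E13.5 level, *Htr3a* was 1.69-fold higher, and *Sp8* (7.62-fold) and *Adarb2* (46.6-fold) were higher from deposited values of 5 and 1.

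The members were also set against *Gad2* in the same non-IPN library, a ratio that can be compared between days and not between genes. *Prox1* was at 0.36, 2.63 and 2.07 CPM per 100 CPM of *Gad2*, in the order of the 3 days. *Htr3a* was at 0.13, 6.22 and 2.78 and *Adarb2* at 0.12, 7.41 and 2.66 on the same scale. These 3 genes were thus lowest relative to *Gad2* at E13.5. *Sp8* was highest there, at 18.6, 5.45 and 4.17, as were *Nr2f1*, at 139, 42.2 and 19.5, and *Nr2f2*, at 21.1 against 5.26 at E16.5. *Npas3* was highest at E15.5, at 7.96, 22.2 and 10.6. Per 100 CPM of *Lhx6* instead, the order of the days changed for some members. *Prox1*, at 4.29, 1.30 and 6.28, was then lowest at E15.5, and *Npas3*, at 94.0, 10.9 and 32.2, was highest at E13.5. On that scale *Htr3a* (1.56, 3.06 and 8.42) and *Adarb2* (1.36, 3.65 and 8.06) were again lowest at E13.5, and *Sp8*, *Nr2f1* and *Nr2f2* again highest there.

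**Figure D3:**
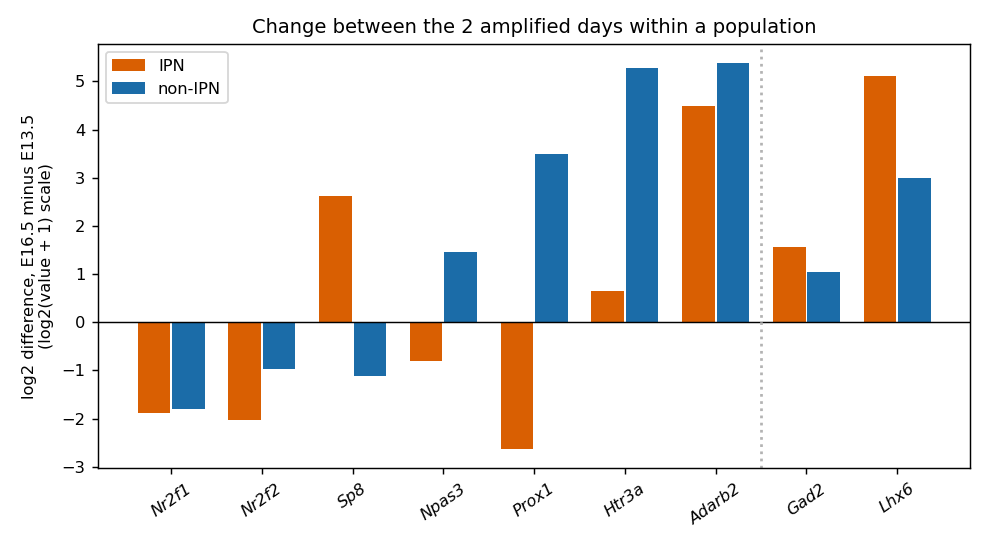
Log2 difference, E16.5 minus E13.5, of log2(value + 1) within IPN (left bar of each pair) and within non-IPN (right bar), for the 7 genes and, right of the dotted line, *Gad2* and *Lhx6*. Each bar is 1 library against 1 library, with no error; *Htr3a* changed by 0.64 in IPN and 5.27 in non-IPN, and *Nr2f1* by -1.88 in IPN and -1.80 in non-IPN.

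Over the 6 libraries the members fell into patterns, given here as a description since libraries share a day and, within E15.5 or within the other days, a preparation. On log2(CPM + 1), Pearson's r was 0.98 between *Htr3a* and *Adarb2*, 0.93 between *Prox1* and *Htr3a* and 0.92 between *Prox1* and *Npas3*. *Sp8* was closest to *Npas3*, at 0.85, and *Nr2f1* to *Nr2f2*, at 0.81, while *Nr2f1* and *Adarb2* had an r of -0.56. Among genes of at least 10 CPM in a library, those most like *Htr3a* were *Nell1*, *Epb4.1l4a* and *Amph* (r of 0.979 to 0.998), those most like *Prox1* were *Slitrk4*, *Pgm1* and *Thsd7a* (all 0.98), and those most like *Adarb2* were *Plxnc1*, *Tmem90b* and *Nap1l3* (all 0.99). *Npas3* was followed by *Wls*, *Vps13b* and *Irf8*, and *Sp8* by *Entpd1*, *Npl* and *Car2*, all at 0.99 or above. *Nr2f1* was followed by *Zfp961*, *Mapk14* and *Clic4* (0.989 to 0.996) and *Nr2f2* by *Vezf1*, *Sf3b1* and *Zfp410* (0.95 to 0.98). The number of genes with an r of at least 0.95 ran from 3 for *Nr2f2* to 99 for *Sp8*.

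Among 20 other genes known from caudal interneurons and their progeny, 2 were lower in IPN and 3 higher, with a median log2 difference of -0.52. Lower were the neuropeptide *Npy* (-3.95 ± 0.53, limma adjusted p = 0.00246) and the bHLH-PAS factor *Npas1* (-4.24 ± 0.88, limma adjusted p = 0.0246). Higher were the receptor tyrosine kinase *Kit* (1.82 ± 0.27), the HLH regulator *Id2* (2.18 ± 0.32) and the cannabinoid receptor *Cnr1* (1.78 ± 0.34), with limma adjusted p of 0.019 or less. These last 3 are not limited to interneurons: *Id2* was at 2246 CPM in IPN and 1271 CPM in non-IPN at E16.5. *Cxcl14*, a chemokine of mature caudal interneurons, had a difference of -2.83, with a limma adjusted p of 0.131. The peptide gene *Vip*, a marker of one adult class, was listed at 0 in 5 libraries and at 0.07 CPM in IPN at E13.5.

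Relatives and partners of the members were described from a list of 24 genes, of which 2 were lower in IPN and 1 higher, with a median log2 difference of -0.21. *Sp9*, the closest relative of *Sp8*, was lower (-5.91 ± 0.55, limma adjusted p = 0.000355), at 0.26 CPM in IPN and 62.5 CPM in non-IPN at E13.5 and at 2.80 CPM in IPN and 74.9 CPM in non-IPN at E16.5. *Npas1*, counted above, was the other. *Bcl11a*, a zinc finger protein that binds the COUP-TF receptors, was higher (1.37 ± 0.20, limma adjusted p = 0.00439). *Nr2f6*, the third COUP-TF relative, had a difference of 0.02 (limma, adjusted p = 1), and *Adarb1*, the editing enzyme related to *Adarb2*, one of -0.11 (limma, adjusted p = 0.919). *Htr3b*, which joins Htr3a in the receptor, was at 0.29 CPM or less in every library. Between E16.5 and E13.5, 4 of the 20 caudal interneuron genes were higher at E16.5 (*Cck*, *Ndnf*, *Zeb2* and *Id2*, by 2.10 to 6.77 on the log2 scale) and none of the 24 relatives was called (limma, 9 at an unadjusted p under 0.05).

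Genes shared by cortical GABA neurons are given for comparison. Of 11 such genes measured, 10 were lower in IPN, with a median log2 difference of -5.80, among them *Gad2* (-5.80 ± 0.24), *Gad1* (-5.82 ± 0.40) and *Dlx1* (-5.80 ± 0.33), with limma adjusted p of 5.04e-05 or less. Of 12 genes of the medial ganglionic eminence, the source of the other large group of cortical interneurons, 8 were lower, with a median of -3.22; they included *Lhx6* (-6.33 ± 0.40), the peptide *Sst* (-6.71 ± 0.42), *Maf* (-5.66 ± 0.35) and *Nxph1* (-5.46 ± 0.43), with limma adjusted p of 0.00012 or less. At E13.5 alone the median difference was -5.89 over the GABA genes and -4.04 over the medial genes, against 0.27 over the members. That member median is the value of *Nr2f1*, and 3 of the 7 members were below 0, *Sp8* at -7.56. *Prox1*, *Htr3a* and *Adarb2* then had deposited values of 30 or less in both populations. The slope per day was not called for *Gad2* (0.14, limma adjusted p = 0.725) or *Lhx6* (0.69, limma adjusted p = 0.0995), but was positive for *Dlx2* (1.15, limma adjusted p = 0.0137) and negative, as for *Prox1*, for *Gad1* (-0.78, limma adjusted p = 0.0435). The GABA genes summed to 65.0, 93.5 and 84.3 CPM in IPN over the 3 days, and to 1574, 4708 and 2790 CPM in non-IPN.

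Other cell types differed between the populations as well. All 12 microglia and macrophage genes were lower in IPN, among them *P2ry12* (-8.87), *Cx3cr1* (-8.06), *Csf1r* (-7.81) and *C1qb* (-7.12); the list summed to 2.2 to 6.1 CPM in IPN and 446 to 974 CPM in non-IPN, and 2 of its genes were at 0 in IPN at E13.5, 5 in IPN at E16.5 and none elsewhere. Of the radial glia and progenitor genes *Sox2* (-3.64) and *Mki67* (-1.32) were lower in IPN, 2 of 12. The list summed to 462 to 1621 CPM in IPN, and over the 3 days to 5852, 868 and 1334 CPM in non-IPN. *Sox2* did not follow that sum, at 221, 283 and 146 CPM in non-IPN. The log2 difference was below 0 for all 12 listed genes on E13.5, for 7 on E15.5 and for 8 on E16.5. Of 10 red blood cell genes *Hba-x* (-6.50) was lower, and the sum was 6.2 to 57.7 CPM in IPN and 17.6 to 49267 CPM in non-IPN. Of the lateral ganglionic eminence and striatal genes, 15 measured, *Ikzf1* (-6.45) and the peptide *Tac1* (-4.81) were lower and *Ppp1r1b* (3.41) was higher. *Ikzf1* is also a gene of blood cells. The share of these cell types in the difference of any member was not tested.

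Projection neuron genes ran the other way, with 9 of 14 higher in IPN, among them *Neurod1* (2.86), *Neurod6* (2.93), *Bhlhe22* and *Zfp238* (2.47). Over the 3 days the list summed to 6527, 8484 and 9879 CPM in IPN and to 1273, 1146 and 4701 CPM in non-IPN. Its median log2 difference was 2.76 on E13.5, 3.315 on E15.5 and 0.99 on E16.5. The part of this change in the members' E16.5 differences was not tested. Of 10 Cajal-Retzius genes the chemokine receptor *Cxcr4* (-3.52), which migrating interneurons carry as well, was lower. None of 11 genes of the hippocampus and dentate gyrus, where *Prox1* is also used, was called by limma (3 at an unadjusted p under 0.05); over the 3 days they summed to 59.5, 711 and 77.8 CPM in IPN and to 40.5, 110 and 107 CPM in non-IPN. None of 10 endothelial, 5 oligodendrocyte precursor and 8 meningeal and choroid plexus genes was called (0, 1 and 1 at an unadjusted p under 0.05).

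**Figure D4:**
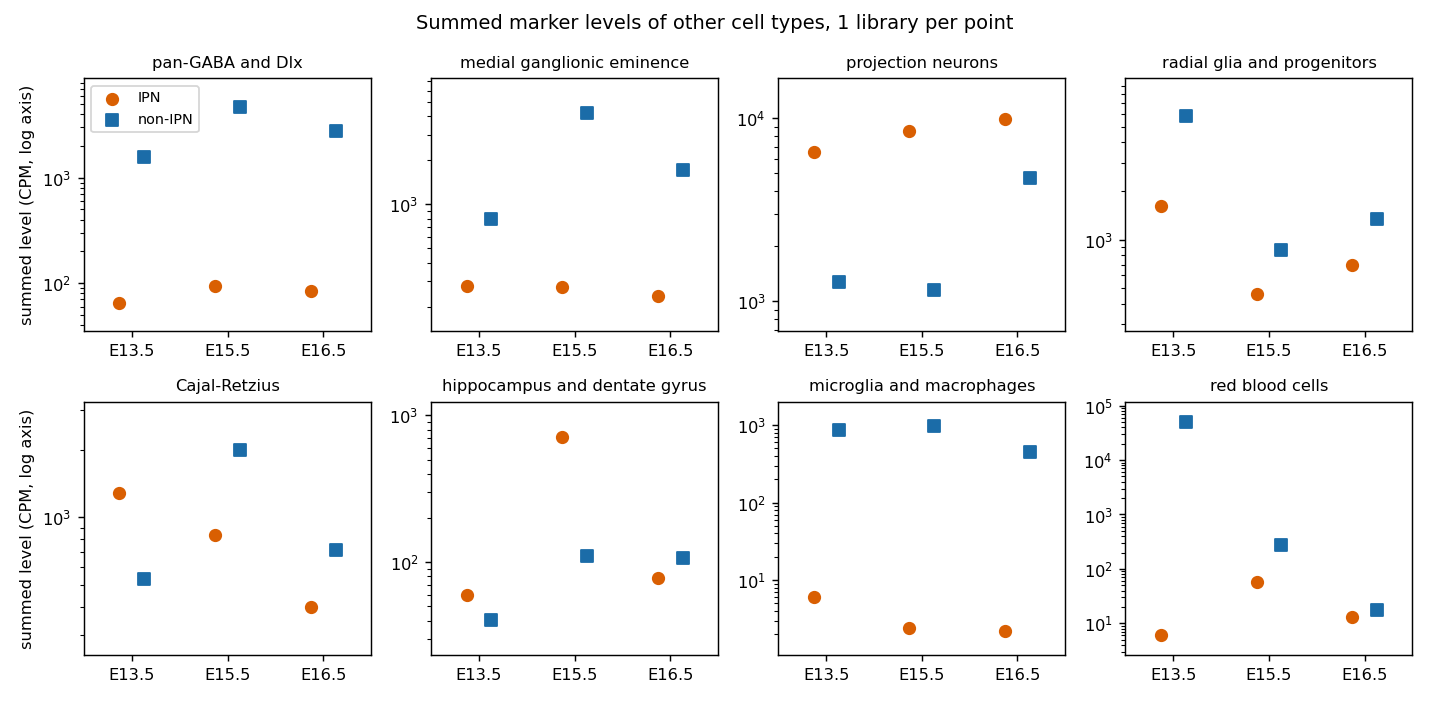
Summed level in CPM, on a log axis, of 8 lists of marker genes against embryonic day, with 1 point a library, IPN as circles left of non-IPN as squares. The GABA, medial ganglionic eminence and microglia lists were lower in IPN on each day, the projection neuron list was higher, and the red blood cell list reached 49267 CPM in the E13.5 non-IPN library.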

How the data were processed

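Total RNA of sorted cells was extracted with TRIzol and made into libraries with an Illumina TruSeq kit, per the labels' protocols. The submitters' processing notes name the build mm9 and the tools TopHat 1.2.0, CASAVA 1.9, edgeR and SAMtools 0.1.18. What each tool did, the counter, its use of strand, the annotation and the scaling are not given by the sources used here. The deposited values are whole numbers per gene symbol whose upper quartile was nearly the same in libraries prepared alike (438 to 444 in the 4 amplified ones, 1501 in both of E15.5), so they were treated as a signal scaled by the authors and not as raw counts. Count models were therefore not run, and depth and counting intervals are not given.

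The 6 files were joined by symbol. Each held 20373 rows; after 3 repeated symbols were removed there were 20367 genes, and the 19561 with a value above 0 in any library were tested. Limma 3.58.1 in R 4.3.3, with the trend and robust options, was fitted to log2(value + 1), a scale that understates the change of low genes, and p-values were adjusted by the Benjamini-Hochberg method over all genes tested, with a threshold of 0.05. Population and embryonic day as a factor gave the IPN minus non-IPN and the E16.5 minus E13.5 differences, with 2 residual degrees of freedom and a median prior of 8.3. In a second fit, with a numeric day term for the population difference, the residual had 1 degree of freedom and the median prior was 14.5. The day is the pairing: per the labels' protocols both populations of a day were sorted from the same cortices. Nothing says that days stand for counted animals, so the p-values measure the spread between these libraries, moderated by that of other genes.

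Members, 14 gene lists and tests were chosen with earlier results of these data known. Of 175 list entries, 171 were found by symbol and 3 by a synonym (*Ndnf* among them), and 1 was not analysed here. Named from each list were the members, up to 4 called genes with the smallest adjusted p and any gene called against the majority of its list; genes that did not pass were added after their values were seen. A gene that this rule names is not reported here. In GENCODE M21, genes on the opposite strand overlap exons of *Nr2f1*, *Nr2f2*, *Prox1* and *Npas3*; without strand their reads cannot be told apart. The fits were tested on simulated data with independent normal noise. Changes were placed only in genes above a set mean level, so that test does not cover genes of low level.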

Additional observations from a re-analysis of the deposited data

Results flagged for a closer look

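*Nr2f2* and *Htr3a* had a sign at E13.5 opposite to that at both later days. The log2 difference, IPN minus non-IPN, of *Nr2f2* was 0.55 on E13.5, then -0.92 on E15.5 and -0.52 on E16.5. For *Htr3a* it was 0.83 on E13.5, then -4.84 on E15.5 and -3.80 on E16.5. The change of sign itself was not tested; the slope over days was not called for either (limma, adjusted p = 0.255 for *Nr2f2* and 0.103 for *Htr3a*), and the E13.5 value of *Htr3a* rests on deposited values of 15 in IPN and 8 in non-IPN. *Prox1* stood out because its slope over days was called, at -2.08 ± 0.47 a day on the log2 scale (limma, adjusted p = 0.0435). Of 6 other settings 3 kept this call. It ended at a pseudocount of 10 (limma, adjusted p = 0.163), at a mean of at least 1 CPM (0.0581) and without the trend and robust options (0.401). Its difference was 0.43 at E13.5, on deposited values of 30 in IPN and 22 in non-IPN, and -5.70 at E16.5, on 4 in IPN and 258 in non-IPN.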

How the results depend on the processing

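Depth is unknown. *Sp8* and *Npas3* between populations and *Nr2f1* between days kept their calls at a pseudocount of 10. For IPN minus non-IPN (664 genes, 3 members called), a pseudocount of 10 gave 334 genes; limma without the trend and robust options gave 0 genes and 0 members (1946 genes at an unadjusted p under 0.05); and the fit with no replicate block, which ignores the pairing by day, gave 0 genes and 0 members (676 unadjusted). Leaving out 1 day gave 54 to 595 genes and 0 to 5 members; *Nr2f1* ranged from -0.17 to 0.23 and *Nr2f2* from -0.72 to 0.014, both positive without E15.5. For E16.5 minus E13.5 (1178 genes, 3 members), a pseudocount of 10 gave 452 genes and 1 member, and limma without the 2 options 0 and 0 (3414 unadjusted). Leaving out a library or the E15.5 pair gave 0 to 97 genes and 0 to 1 members; *Sp8* ranged from -1.01 to 2.51, with -0.30 without IPN at E16.5, *Prox1* from -2.26 to 3.12, with -1.48 without non-IPN at E16.5, and *Npas3* from -0.78 to 1.44, with -0.25 without non-IPN at E16.5. For population by day (255 genes, 1 member), a pseudocount of 0.5 gave 530 and 2, of 10 gave 9 and 0, a mean of at least 1 CPM left 0 members, column totals gave 1421 and 4, median-of-ratios factors 1558 and 4, and limma without the 2 options 0 and 0 (2321 unadjusted). The causes were not tested. *Adarb2* between populations lost its call at a pseudocount of 10 (limma, adjusted p = 0.204), at a mean of at least 1 CPM (0.055) and with median-of-ratios factors (0.0564). Between days *Adarb2* lost its call at a pseudocount of 10 (limma, adjusted p = 0.118). *Nr2f2* between days lost it at a pseudocount of 10 (limma, adjusted p = 0.0995) and with column totals (0.0642). Among genes of at least 1 CPM, column totals moved the median log2 difference to -0.10 between populations, against 0.04 as deposited, and to 0.14 between days, against 0.03. Count-based tests were not run since the values are not raw counts, and population by day without a pair leaves no residual degrees of freedom.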

Other observations

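Of the 24 relatives and partners of the members, 1 had a population difference whose change over the days was called. *Zfpm2*, a cofactor that binds Nr2f2, was at 43.6 CPM in IPN and 4.15 CPM in non-IPN at E13.5, at 58.6 CPM in IPN and 14.6 CPM in non-IPN at E15.5, and at 19.8 CPM in IPN and 21.0 CPM in non-IPN at E16.5. Its slope was -1.07 ± 0.23 a day (limma, adjusted p = 0.0345), while its difference over the 3 pairs, 1.902 ± 0.54, was not called (limma adjusted p = 0.107). *Cnr1*, of the other caudal interneuron genes, had a slope of -0.71 ± 0.16 a day (limma, adjusted p = 0.0376), with 716 CPM in IPN and 103 CPM in non-IPN at E13.5, and 724 CPM in IPN and 487 CPM in non-IPN at E16.5. *Arnt2*, of the family that pairs with bHLH-PAS factors, was at 116 CPM in IPN and 114 CPM in non-IPN at E13.5. It was at 272 CPM in IPN and 1083 CPM in non-IPN at E15.5, and at 85.1 CPM in IPN and 214 CPM in non-IPN at E16.5. Its difference over the pairs was -0.96 ± 0.34 (limma, adjusted p = 0.21) and its slope -0.52 ± 0.21 (limma, adjusted p = 0.251). Both slopes that passed were found in a fit with 1 residual degree of freedom, in which 255 genes were called.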
